A study of Rattus norvegicus with 6 samples.

Results

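The sulfiredoxin, thioredoxin and peroxiredoxin system comprised 10 genes, taken by name: the sulfiredoxin gene Srxn1, the thioredoxin gene Txn1, its reductases Txnrd1 and Txnrd2, its binding partner Txnip, and the peroxiredoxin genes Prdx1, Prdx2, Prdx3, Prdx5 and Prdx6. Each was found on the array through the RefSeq accession that the scanner files attach to a probe, which gave 15 probes among 61657 non-control probes. All 10 genes entered a test of 32663 gene entries, of which 11831 carried a gene symbol. Anthraquinone-treated and vehicle animals were male Sprague-Dawley (Crl:CD(SD)) rats, purchased at 5 weeks of age and kept on a basal diet. The anthraquinone group (3 rats) was dosed with anthraquinone, a tricyclic quinone, at 1000 mg/kg/day for 4 weeks, and the corn oil group (3 rats) was given corn oil over the same 4 weeks. Total RNA of the renal cortex of each rat was labelled with the dye Cy3 and hybridised to 1 Agilent array. The question was which transcripts of the renal cortex differ after 4 weeks of anthraquinone.

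Peroxiredoxins are abundant peroxidases that reduce hydrogen peroxide and organic peroxides through a reactive cysteine. Thioredoxin returns most of them to the reduced form and is itself reduced by thioredoxin reductase, a selenocysteine enzyme that draws on NADPH. When peroxide oxidises the cysteine of a typical 2-Cys peroxiredoxin too far, sulfiredoxin repairs it at the cost of ATP. In many tissues Srxn1, Txnrd1 and Prdx1 are targets of Nrf2, the transcription factor that answers oxidants and electrophiles such as quinones. The proximal tubule, which makes up most of the renal cortex, is rich in mitochondria and in these enzymes.

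Values are log2 processed intensities relative to the 75th percentile of the same array, so that 0 is the 75th percentile, and every difference is anthraquinone minus corn oil on that log2 scale. The processed intensity at that percentile was 844 to 880 on the anthraquinone arrays and 903 to 1190 on the corn oil arrays. The scanner software called 64.2 to 66.1% of probes well above background on the anthraquinone arrays and 68.7 to 70.7% on the corn oil arrays. Of the 6 arrays, 5 shared a slide, and that of corn oil replicate 1 was on another, scanned separately. On the shared slide all anthraquinone arrays were in row 2 and corn oil replicates 2 and 3 in row 1. Row and treatment therefore cannot be told apart on that slide. Corn oil replicate 1 was in row 2 of the other slide. All 10 proximal tubule markers, among them Slc34a1 and Lrp2, were well above background on all 6 arrays. Their summed level was 2208 to 2671 times the 75th percentile with anthraquinone and 2384 to 2752 times with corn oil. Of the 10, 7 had a positive difference and the median was 0.07. The bright marker Kap (-0.46) was the 1 without overlap, lower with anthraquinone. Of 4 thick ascending limb markers that were tested, 0 had a positive difference and the median was -0.27. Of 6 principal cell markers, 3 were lower in every anthraquinone rat than in any corn oil rat and 1 was higher, against 10.3% and 14.9% of all entries, with a median difference of -0.43, and both distal convoluted tubule markers that were tested were lower. In a bulk sample, a change in the number of cells of a type and one in RNA per cell cannot be told apart, and the part of cell makeup in the values below was not tested. Of 5 liver markers, Alb, Ttr and Serpina1 did not pass the filter on dim probes. Fgb was well above background on all 6 arrays (-1.56 to -0.76 with anthraquinone, -1.36 to -0.59 with corn oil). Apoa1 was not. It had -1.71 in corn oil replicate 1, against -5.65 and -5.23 in replicates 2 and 3 of that group, and -5.38, -4.86 and -6.48 with anthraquinone. All 15 probes of the system were well above background on all 6 arrays and none was saturated, so no member entered the test through 1 group alone.

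Srxn1 had the largest difference of the 10 genes, 4.75-fold higher signal with anthraquinone, followed by Txnrd1 (1.42-fold), Prdx1 (1.35-fold) and Prdx5 (1.25-fold). Txnip, Prdx3 and Prdx2 lay at the other end, with 1.02-, 1.05- and 1.12-fold. None of the 10 passed the test over all genes (limma with Benjamini-Hochberg adjustment at 0.05), the lowest adjusted p being 0.140 for Srxn1, where 0.0276% of all gene entries passed. At an unadjusted p under 0.05, 4 of the 10 were higher (Srxn1, Txnrd1, Prdx5 and Prdx2) and 0 were lower, against 9.43% and 7.69% of all entries. The 3 anthraquinone values lay above all 3 corn oil values for 6 of the 10 genes and below them for 0, against 14.9% and 10.3% of all entries. The difference was above 0 for all 10 genes, against 51.5% of all entries, and its median was 0.21 over the members and 0.01 over all entries. Most genes of each of the 6 related lists below were also above 0, from 12 of 17 to 8 of 9. After quantile normalization Txnip (-0.05) and Prdx3 (-0.02) were below 0 and Txn1 was 0.001. The median of the members was then 0.13, and 3 of the 10 had groups without overlap. With 3 arrays against 3, an exact permutation test over arrays cannot give a two-sided p below 0.1, and that value was reached by the 6 genes without overlap.

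**Figure D1:**
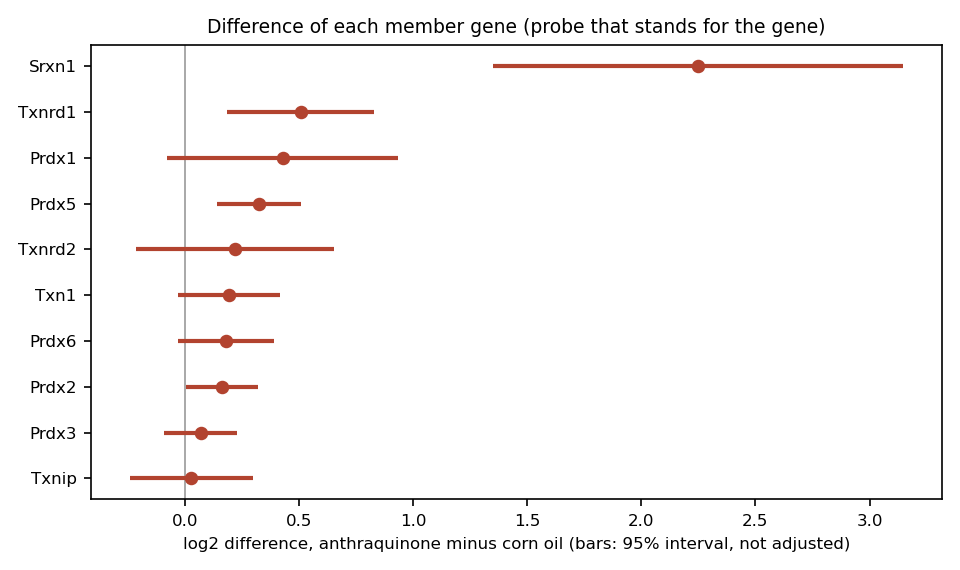
Log2 difference between anthraquinone and corn oil (horizontal axis) for each of the 10 genes, on the probe that stands for the gene. Points are limma estimates and bars their unadjusted 95% intervals (3 arrays per group). The interval of Srxn1, 1.35 to 3.15, lies above those of the other 9 genes, the next highest of which ends at 0.93.

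The promoter windows of the 4 genes with the largest differences are printed here because these genes had the highest signal with anthraquinone relative to corn oil and 3 of them are described as Nrf2 targets. Each window runs from 250 bases before to 50 bases after the annotated start of transcription and comes from RefSeq on rat build GRCr8, 5′ to 3′ on the strand of the gene. Capitals mark matches, on either strand, to the core of the antioxidant response element, TGACNNNGC, which Nrf2 and small Maf proteins bind. They also mark TGANTCA, called the heptamer here. This pattern covers the AP-1 heptamer, TGAGTCA or TGACTCA, that forms the centre of many such elements. As N is any base, the share of all windows with TGANTCA also counts sequences that are not AP-1 heptamers. The heptamer was added after the windows had been read, and the matches can overlap, as the long form TGACTCAGC holds both. Of 2 windows of Txnrd1, the one with a match is shown. They lie at chr3:161064562-161064861 on the plus strand (Srxn1), chr7:22755855-22756154 on the minus strand (Txnrd1), chr5:135383656-135383955 on the plus strand (Prdx1) and chr1:213531978-213532277 on the minus strand (Prdx5).
Srxn1: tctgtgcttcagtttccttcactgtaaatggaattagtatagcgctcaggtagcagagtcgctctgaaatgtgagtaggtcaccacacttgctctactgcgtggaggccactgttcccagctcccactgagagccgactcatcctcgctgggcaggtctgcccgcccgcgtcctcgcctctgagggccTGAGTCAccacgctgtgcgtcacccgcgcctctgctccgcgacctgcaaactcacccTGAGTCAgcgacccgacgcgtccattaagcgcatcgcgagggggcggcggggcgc
Txnrd1: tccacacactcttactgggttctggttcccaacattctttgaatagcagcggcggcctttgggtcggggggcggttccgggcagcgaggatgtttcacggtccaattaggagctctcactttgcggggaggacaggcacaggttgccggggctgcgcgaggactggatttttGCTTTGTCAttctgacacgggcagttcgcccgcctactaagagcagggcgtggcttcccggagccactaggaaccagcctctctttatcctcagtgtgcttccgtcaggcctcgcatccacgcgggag
Prdx1: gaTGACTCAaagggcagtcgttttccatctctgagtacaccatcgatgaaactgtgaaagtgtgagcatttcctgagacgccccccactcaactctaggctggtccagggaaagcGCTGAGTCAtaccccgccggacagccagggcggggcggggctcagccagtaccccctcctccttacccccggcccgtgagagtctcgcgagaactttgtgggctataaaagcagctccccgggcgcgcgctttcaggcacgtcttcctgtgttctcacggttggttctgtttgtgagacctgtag
Prdx5: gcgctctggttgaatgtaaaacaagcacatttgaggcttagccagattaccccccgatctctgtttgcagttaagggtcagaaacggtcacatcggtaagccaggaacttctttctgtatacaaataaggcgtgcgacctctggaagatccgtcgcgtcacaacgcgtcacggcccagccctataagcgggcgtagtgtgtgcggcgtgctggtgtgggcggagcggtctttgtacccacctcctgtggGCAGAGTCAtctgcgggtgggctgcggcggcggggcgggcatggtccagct

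The Srxn1 window held TGAGTCA at 2 places, at positions -62 and -5 from the start of transcription, and no match to TGACNNNGC. The Txnrd1 window held 1 core match, TGACAAAGC read on the opposite strand, at position -78. In the Prdx1 window the long form TGACTCAGC was found on the opposite strand at position -135, and a further heptamer lay at position -248. The Prdx5 window held TGACTCTGC on the opposite strand at position -1. Of the 10 genes, 8 had a window in the table, with 9 windows in all, and the windows of Txnrd2, Txn1, Prdx2 and Prdx3 and the other window of Txnrd1 held neither motif. Over 33469 rat promoter windows of the same length, 12.1% held the core, 7.33% the heptamer, 18.3% either of them and 0.415% the long form. The E-box CACGTG was found in 0 of the 9 windows and in 6.42% of all windows. A match is a run of letters and was not tested for binding.

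Sulfiredoxin was represented by 2 probes, both of which separated the groups. On probe A_42_P842833, the brighter of the pair, Srxn1 had 2.74, 3.46 and 4.09 in anthraquinone replicates 1, 2 and 3, against 0.93, 1.64 and 0.98 in corn oil replicates 1, 2 and 3. The lowest anthraquinone rat stood above the highest corn oil rat by more than the whole spread of the corn oil rats, 0.71, and the anthraquinone rats were spread more widely (3.43 ± 0.68) than the corn oil rats (1.18 ± 0.40; SD, n = 3 each). The difference was 2.25 ± 0.37 (SE, limma adjusted p = 0.140), which placed Srxn1 at rank 187 of 32663 entries by p and at the 99.9th percentile by size. The dimmer probe, A_42_P703664, had -3.50, -2.92 and -2.68 with anthraquinone, against -4.37, -4.03 and -4.11 with corn oil. Its difference was smaller, 1.14 ± 0.22 (SE, limma adjusted p = 0.166 with every probe as an entry), or 2.20-fold against 4.75-fold, although both probes carry the same accession and placed anthraquinone replicate 3 highest and corn oil replicate 2 highest in their groups. The difference on the brighter probe was 1.92 with anthraquinone replicate 3 left out, 2.60 with replicate 1 of that group left out, and 2.12 among the 5 arrays that shared a slide (limma adjusted p = 0.321 with the slide as a block).

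Thioredoxin reductase 1, encoded by Txnrd1, is the cytosolic enzyme that keeps thioredoxin reduced, and it had 4 probes with like differences. On the brightest, A_44_P554454, Txnrd1 had 1.50, 1.58 and 1.85 in anthraquinone replicates 1, 2 and 3, against 1.13, 1.31 and 0.96 in corn oil replicates 1, 2 and 3. The groups did not overlap, with a gap of 0.18 between the closest rats, and the difference was 0.51 ± 0.13 (SE, limma adjusted p = 0.199). The other 3 probes gave 0.58, 0.46 and 0.40, or 1.50-, 1.38- and 1.32-fold, and 0 of the 4 passed with every probe as an entry, where 0.0339% of 41310 probes passed. On A_44_P456738 the values were 1.36, 1.47 and 1.62 with anthraquinone, against 0.82, 1.04 and 0.84 with corn oil, again without overlap. On A_44_P134070 corn oil replicate 2, at 1.05, lay just above anthraquinone replicate 1, at 1.02, and this was the 1 Txnrd1 probe whose groups overlapped. All 4 Txnrd1 probes had their highest anthraquinone value in replicate 3 and their highest corn oil value in replicate 2, as did both Srxn1 probes.

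Txnrd2 encodes the mitochondrial thioredoxin reductase, and neither of its probes separated the groups. On A_44_P252210 it had 2.12, 1.86 and 1.99 with anthraquinone, against 1.81, 2.08 and 1.41 in corn oil replicates 1, 2 and 3. Corn oil replicate 3 was the lowest of the 6 rats and corn oil replicate 2 lay among the anthraquinone rats. The difference of 0.22 ± 0.18 (SE, limma adjusted p = 0.563) had a 95% interval of -0.21 to 0.65, and it was 0.04 with corn oil replicate 3 left out, 0.38 with replicate 2 of that group left out and 0.12 with array weights. The second probe gave 0.24, and across the 6 arrays the pair followed each other closely (Pearson r = 0.996, a description over arrays that share a platform and scaling).

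Txn1, the cytosolic thioredoxin that passes electrons to peroxiredoxins, had 7.31, 7.44 and 7.49 in anthraquinone replicates 1, 2 and 3, against 7.14, 7.34 and 7.17 in corn oil replicates 1, 2 and 3. Anthraquinone replicate 1 and corn oil replicate 2 crossed by 0.03, so that the groups overlapped. The difference was 0.19 ± 0.09 (SE, limma adjusted p = 0.338), with a 95% interval of 0.981- to 1.34-fold, and after quantile normalization it was 0.001. Txnip, an arrestin-like protein that binds reduced thioredoxin and is induced by glucose, had 3.98, 4.18 and 3.98 with anthraquinone, against 3.84, 4.07 and 4.15 with corn oil. The groups lay over each other, and the difference of 0.03 ± 0.11 (SE, limma adjusted p = 0.921) had a 95% interval of 0.846- to 1.23-fold. Its sign was not settled, being -0.06 among the arrays that shared a slide and 0.21 with the row on the slide as a block.

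Of the peroxiredoxins, the cytosolic Prdx1 had the largest difference and the most uneven controls. It had 5.50, 5.54 and 5.51 in anthraquinone replicates 1, 2 and 3, against 5.19, 5.45 and 4.61 in corn oil replicates 1, 2 and 3. The anthraquinone rats lay within 0.04 of each other and the corn oil rats within 0.83, and the gap between the groups was 0.05. The difference of 0.43 ± 0.21 (SE, limma adjusted p = 0.348) was 0.19 when corn oil replicate 3 was left out and 0.61 when replicate 2 of that group was left out. Corn oil replicate 3 was also the lowest rat for both Txnrd2 probes.

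Prdx5, an atypical 2-Cys peroxiredoxin found in mitochondria, peroxisomes and cytosol, also separated the groups. Its values were 6.43, 6.59 and 6.55 with anthraquinone, against 6.16, 6.24 and 6.20 with corn oil. The lowest anthraquinone rat stood 0.20 above the highest corn oil rat, and the difference was 0.32 ± 0.08 (SE, limma adjusted p = 0.191, 1.25-fold). It was 0.16 after quantile normalization.

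Prdx2, the cytosolic peroxiredoxin that is especially abundant in red cells, had 5.31, 5.34 and 5.36 with anthraquinone, against 5.15, 5.18 and 5.20 with corn oil. The groups did not overlap, and the difference was small, 0.16 ± 0.07 (SE, limma adjusted p = 0.279). It was 0.05 after quantile normalization. Red cell markers moved the same way: all 4 that were tested, Hba-a1, Hbb, Alas2 and Slc4a1, had higher values in every anthraquinone rat than in any corn oil rat, against 14.9% of all entries, with differences of 0.35 to 0.86 and none past the test. Slc4a1 is also on the list of intercalated cell markers, where it was the 1 of 5 without overlap. The summed level of the 4 red cell markers was 765 to 1018 times the 75th percentile with anthraquinone and 496 to 639 times with corn oil. The part of red cells in the Prdx2 value was not tested.

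Prdx3 is the mitochondrial 2-Cys peroxiredoxin. It had 4.39, 4.42 and 4.35 with anthraquinone, against 4.32, 4.31 and 4.32 with corn oil. The groups did not overlap, but by only 0.03, and the difference of 0.07 ± 0.07 (SE, limma adjusted p = 0.618) was -0.02 after quantile normalization. Prdx6, the 1-Cys peroxiredoxin that also acts as a phospholipase, had 3.90, 3.99 and 3.98 with anthraquinone, against 3.91, 3.71 and 3.71 with corn oil. Corn oil replicate 1 lay among the anthraquinone rats, and the difference was 0.18 ± 0.09 (SE, limma adjusted p = 0.343). It was 0.05 with the row on the slide as a block and 0.10 after quantile normalization.

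**Figure D2:**
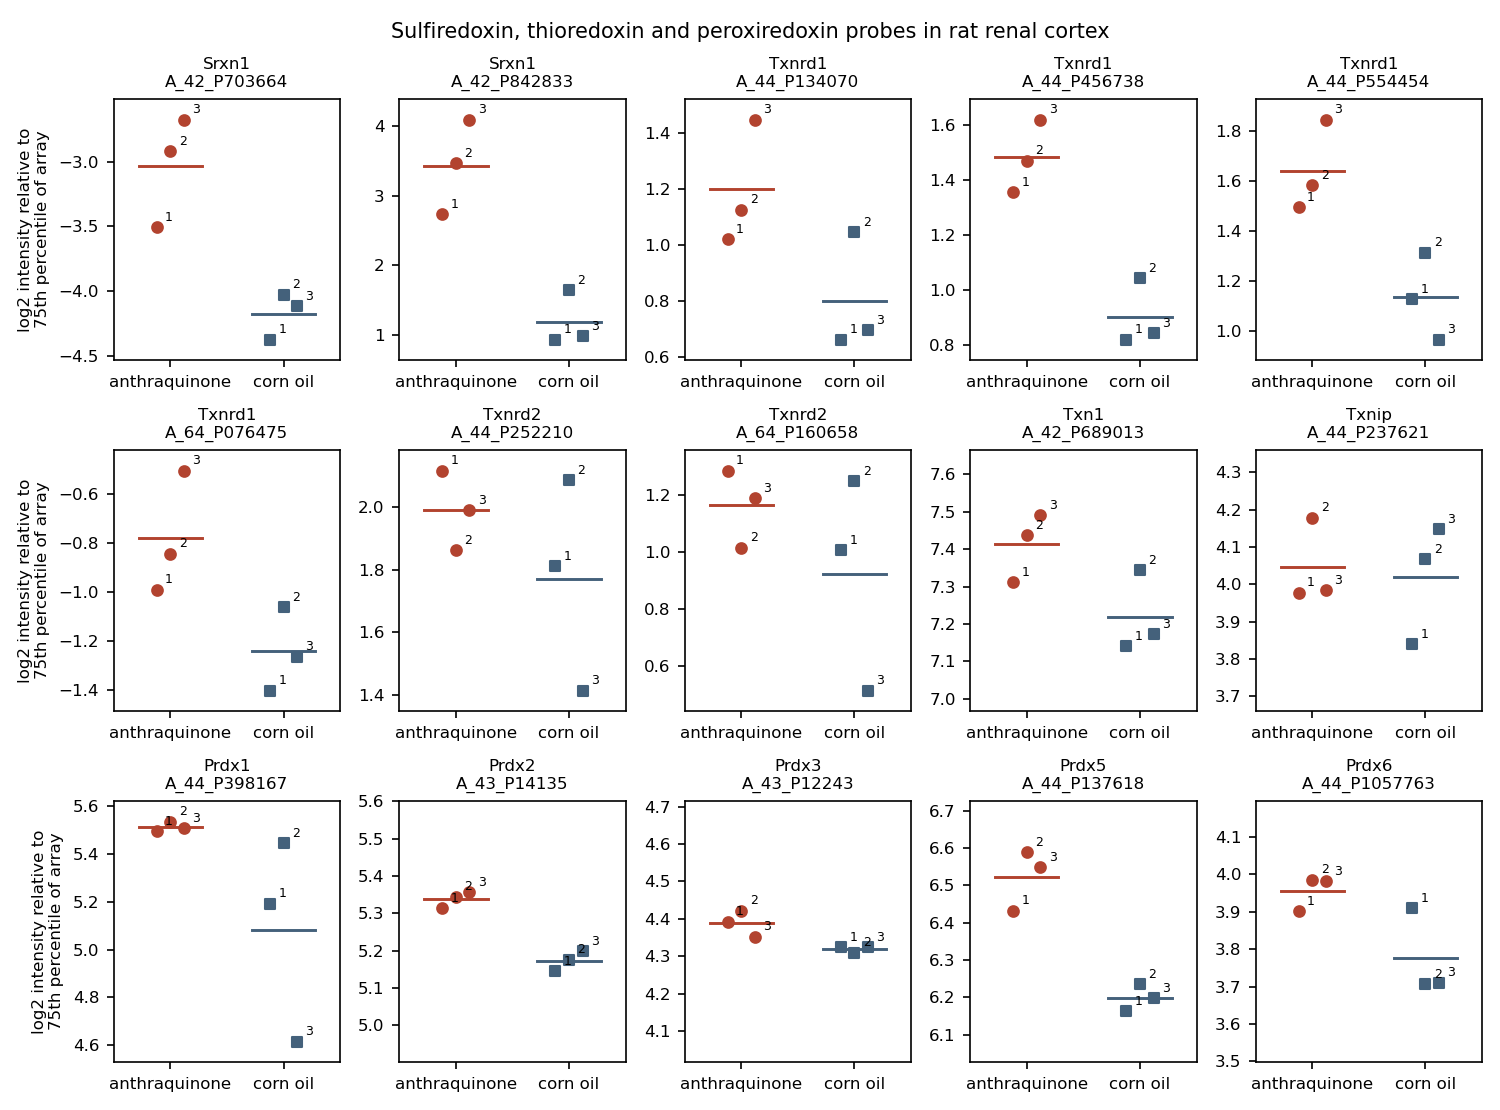
Values of the 15 probes on each array (vertical axis, log2 processed intensity relative to the 75th percentile of the array; the range differs between panels). Circles are the 3 anthraquinone rats, squares the 3 corn oil rats, small numbers their replicate numbers, and lines the group means. Both Srxn1 panels show separate groups, while Txnrd2, Txn1, Txnip and Prdx6 overlap.

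Over the 15 probes, which belong to 10 genes and so are not independent, 9 had groups without overlap, all higher with anthraquinone, against 14.4% of all probes. Anthraquinone replicate 1 was the lowest of its group on 12 of the 15 probes, against 33.3% of all named genes, and corn oil replicate 2 was the highest of its group on 11 of the 15, against 29.9%. These shares take 1 probe per gene, whereas the 15 probes count some genes more than once, so the units are unlike. The median over the members, each set against its corn oil mean, was 0.19, 0.21 and 0.25 in anthraquinone replicates 1, 2 and 3 and -0.02, 0.09 and -0.06 in corn oil replicates 1, 2 and 3. The lowest anthraquinone value of this median lay above the highest corn oil value.

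The closest relatives of the members differed little. Of 17 measured thioredoxin and glutaredoxin relatives, 0 passed the test, 12 had a positive difference and the median was 0.11, with differences from -0.30 to 0.25. Groups without overlap were higher for 4 of the 17 and lower for 1, against 14.9% and 10.3% of all entries, which is near the background. The 4 included Txndc9 (0.24 ± 0.08), Tmx2 (0.21 ± 0.09) and Glrx3 (0.16 ± 0.08; SE), which was 0.079 after quantile normalization and 0.084 with the row on the slide as a block. The 1 that was lower was Prdx4, the peroxiredoxin of the endoplasmic reticulum. Prdx4 had 0.26, 0.41 and 0.21 with anthraquinone, against 0.59, 0.60 and 0.56 with corn oil, a difference of -0.29 ± 0.08 (SE, limma adjusted p = 0.206), opposite in sign to the 5 other peroxiredoxins.

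Among 8 measured partners of thioredoxin and relatives of Txnip, 0 passed and the median was 0.07. Groups without overlap were higher for 2 of the 8, against 14.9% of all entries. These were Arrdc3, an arrestin-domain gene of the same family as Txnip (0.33 ± 0.07), and Rrm2, a subunit of ribonucleotide reductase, which uses thioredoxin as an electron donor (0.34 ± 0.15; SE). The 4 probes of Rrm2 ran from 0.09 to 0.47, and the value was 0.20 with corn oil replicate 3 left out and 0.13 with the row on the slide as a block. Of 12 measured genes for selenoproteins and for the insertion of selenocysteine, on which both thioredoxin reductases depend, 0 passed and the median was 0.07. Scly, which recycles selenocysteine, Trnau1ap and Selenos had groups without overlap, 3 of 12 against 14.9% of all entries, with differences of 0.19, 0.18 and 0.10. The 4 probes of Scly ran from 0.03 to 0.19, with a mean of 0.11, and Trnau1ap was 0.11 after quantile normalization.

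Of 8 measured genes for Nrf2 and its partners 0 passed, with a median of 0.19, and 3 had groups without overlap that were higher, against 14.9% of all entries. Nrf2 itself (Nfe2l2) had a difference of 0.12 and its inhibitor Keap1 had -0.02. Sqstm1, whose product binds Keap1, had 5.18, 5.26 and 5.48 with anthraquinone, against 4.46, 4.54 and 4.77 with corn oil, a difference of 0.71 ± 0.12 (SE, limma adjusted p = 0.154). Bach1, the haem-sensitive repressor of Nrf2 target genes, differed by 0.61 ± 0.09 (SE, limma adjusted p = 0.128) and the small Maf gene Maff by 0.86 ± 0.26 (SE, limma adjusted p = 0.219), both without overlap. Maff was 0.47 after normexp background correction.

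Of 15 other Nrf2 targets, 2 rose over all genes, Hmox1 (2.14 ± 0.15) and Nqo1 (1.82 ± 0.12; SE, limma adjusted p = 0.0308 for both), and 0 fell. Of all gene entries, 0.0276% passed. Hmox1 and Nqo1 encode a haem-degrading enzyme and a quinone reductase. The calls were lost in 9 (Hmox1) and 8 (Nqo1) of 21 alternatives, among them the slide as a block (limma adjusted p = 0.0928 for Hmox1 and 0.175 for Nqo1). On its brighter probe Srxn1 had a difference of the same size as Hmox1, with a SE of 0.37 against 0.15. The dimmer Srxn1 probe gave 1.14 and the mean of the Srxn1 probes 1.69. The cystine transporter gene Slc7a11 had -4.64, -3.81 and -1.98 with anthraquinone, against -5.18, -4.91 and -5.15 with corn oil, so that its difference of 1.60 ± 0.64 (SE, limma adjusted p = 0.282) was 0.855 without anthraquinone replicate 3 and 0.839 after normexp. The Slc7a11 signal was dim, though called well above background on every array, and only 1 of its 3 probes passed the filter. Groups without overlap were higher for 9 of the 15 and lower for 0, against 14.9% and 10.3% of all entries. The median of the list was 0.28, and its lowest values were those of Gclm (-0.45) and Gclc (-0.33), the subunits of glutamate-cysteine ligase, whose groups overlapped.

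Enzymes that remove peroxide or superoxide by other routes differed little. Of 9 measured, 0 passed, 8 had a positive difference and the median was 0.11. Groups without overlap were higher for Gpx4, the lipid peroxide-reducing glutathione peroxidase (0.31 ± 0.10), and for the cytosolic superoxide dismutase gene Sod1 (0.11 ± 0.07; SE). After quantile normalization Gpx4 was 0.12 and the sign of Sod1 turned (-0.09). These are 2 of 9 genes, against 14.9% of all entries.

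**Figure D3:**
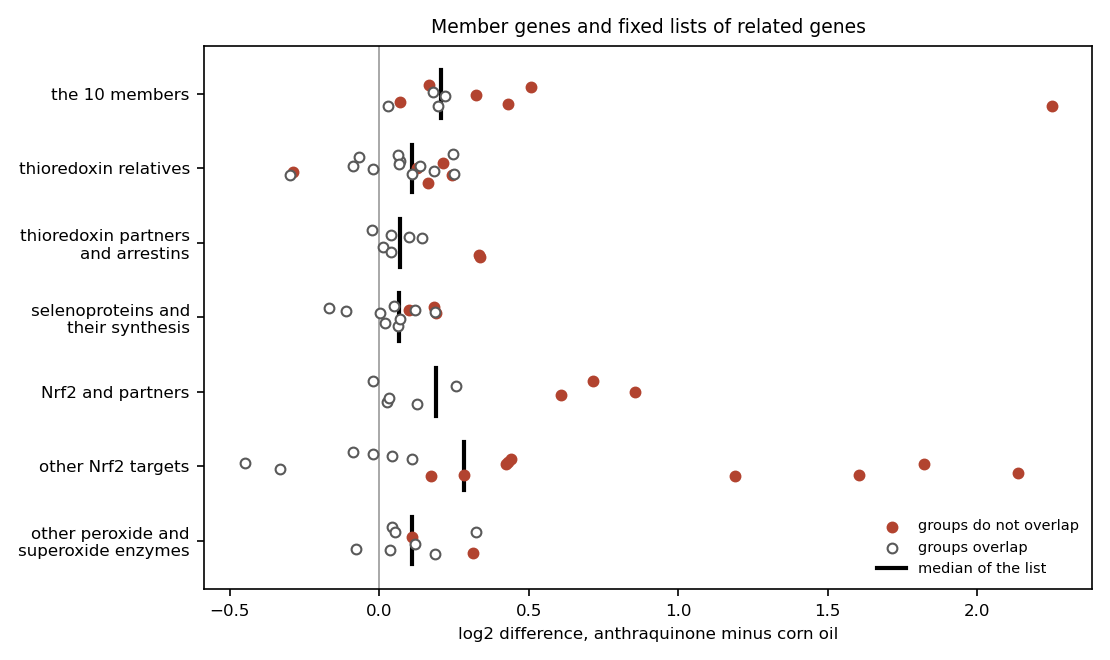
Log2 difference between anthraquinone and corn oil (horizontal axis) for the 10 members and for 6 lists of related genes. Each point is a gene, filled where the 3 anthraquinone values and the 3 corn oil values do not overlap, and each vertical bar is the median of its list. The medians run from 0.07 to 0.28 and the points beyond 1 are Srxn1 and 4 other Nrf2 targets.

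Across the 6 arrays, the named genes whose pattern was most like that of Srxn1 were the ribosomal protein gene Rpl35 (Pearson r = 0.998), Gnl1 (0.998), Ypel2 (0.997), the ribosomal protein gene Rps15 (0.997) and Bach1 (0.993), out of 11230 named genes well above background on all arrays. For Txnip they were Slc35e4 (0.993), Kank3 (0.993), Nlgn2 (0.991), Cers4 (0.986) and Adam7 (0.985). These are descriptions over 6 arrays that share a platform and a scaling, with the best of many comparisons picked. After quantile normalization Rpl35 and Rps15 followed Srxn1 less closely (0.597 and 0.623).

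**Figure D4:**
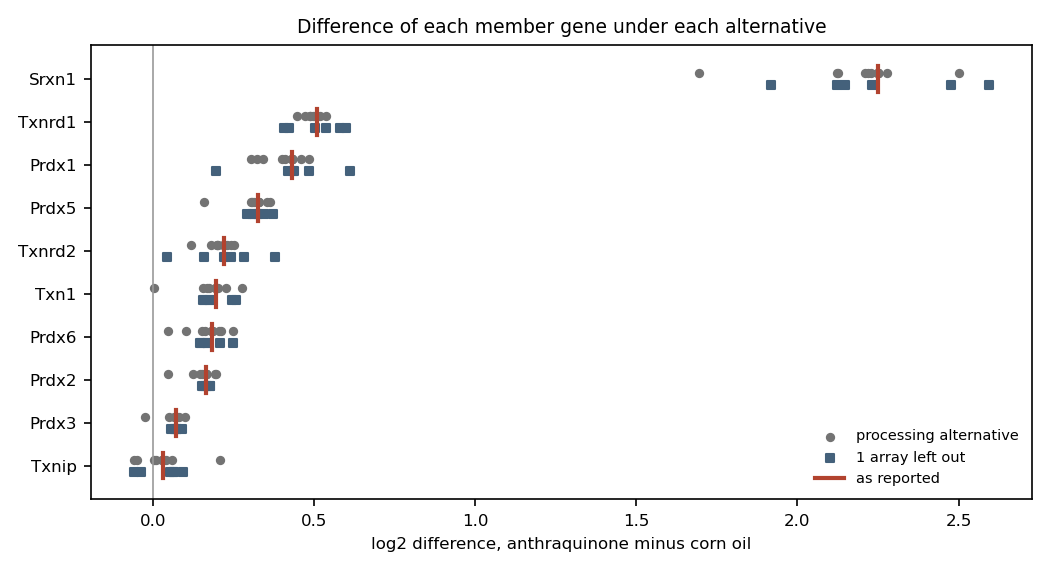
Log2 difference between anthraquinone and corn oil (horizontal axis) for each member gene under 21 alternatives: circles are other ways to process the values, squares leave out 1 array, and the vertical mark is the reported value. Srxn1 stays between 1.69 and 2.60, while Txnip and Prdx3 cross 0.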

How the data were processed

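Renal cortex of 6 rats was profiled on 1-colour Agilent arrays, with groups and replicate numbers taken from the sample titles. Per the file headers, the deposited scanner files hold spot intensity from Feature Extraction 10.7.1.1 (Agilent), which was background-subtracted and spatially detrended but not scaled between arrays. In the authors' deposited value table, 90.7 to 97.0% of probes per array were within 0.01 log2 of that intensity after scaling to the 75th percentile of the array, and the other probes differed by more. Here log2 processed intensity minus that percentile was used, after 2 to 13 flagged spots per array were left out.

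Probes were named by accession through the RefSeq table of GRCr8 (27460 probes, 15284 symbols). A probe was kept (41310 were) if every array of 1 group or both had it well above background, and the brightest probe stood for a gene. The test was limma's (lmFit, eBayes; version 3.58.1 under R 4.3.3), adjusted over 32663 entries. Each array is 1 animal, so p-values reflect animal-to-animal spread together with that between arrays and slides, with precision limited by having 6 arrays. Of the genes in 6 related lists, those past the test and up to 3 per direction with the largest difference and no overlap are named by rule, and others were chosen after their values were seen. The members and lists were chosen with earlier results of these data known. The procedure was tested on simulated data. Alternatives covered scaling, background, filter, probe choice, variance model, blocks, threshold and each array left out. The planned normexp correction (offset 50) used median spot signals, since the columns read here hold medians.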

Additional observations from a re-analysis of the deposited data

How the results depend on the processing

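Over 21 alternatives, 204 of 210 member values kept their direction and their side of the threshold. The filters, every probe as an entry, the intensity trend, the replicate block and the adjusted p of 0.1 left each member's difference as it was. They bear only on the side of the threshold. Txnip turned to -0.051 after quantile normalization and -0.060 with the slide as a block, and ran from -0.060 (without corn oil replicate 1) to 0.093 (without corn oil replicate 3) with each array left out, being negative also without anthraquinone replicate 2. After quantile normalization Prdx3 was -0.025, Scly -0.0002 and Sod1 -0.093, the median of the members was 0.13 and 3 members had groups without overlap. Without the filter on dim probes, 6609 of 49481 entries passed, 6049 higher and 560 lower, among them 1 member, Srxn1 (2.25, limma adjusted p = 0.0202). Fewer probes were well above background with anthraquinone, and its part in this count was not tested. The median was 0.32 over the 15 probes, and 0.17 to 0.30 with each array left out, where 0 members passed. Groups without overlap were then seen for 6 to 8 members. Leaving out an array can only keep or add such groups, so this count could not fall below 6. The share of all entries without overlap was not counted for the alternatives. Of all entries, 9 passed, 5 higher and 4 lower, against 16 with normexp, 14 with every probe as an entry, 80 with an intensity trend and robust variance, 2 with the slide as a block, 1 with the row on the slide as a block and 54 at an adjusted p of 0.1. Leaving out each array gave 1 to 32, lowest without anthraquinone replicate 2 and highest without corn oil replicate 3. Deviations from the group means in same-numbered arrays of the groups had r of 0.03, -0.06 and -0.01 over 32649 entries. Differently numbered arrays had r from -0.10 to 0.11. Deviations from means of so few arrays cannot show whether the rats were paired. With the replicate block 1 entry and 0 members passed. The cause of these shifts was not tested. Leaving out corn oil replicate 1 and the slide block use the same arrays, so slide and animal cannot be told apart. With the row as a block, the difference rests on corn oil replicate 1 as the only corn oil array. Row, slide and animal cannot be told apart there.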
